A study of Mus musculus with 9 samples.

Results

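The genes described here make cholesterol and fatty acids: 32 mouse genes named by a list of symbols, of which 31 were found among the 33924 genes of the count table. The other one, Hmgcs1, was not found under its symbol and was not analysed here. The 31 comprise 5 genes of the mevalonate steps, 10 of the sterol steps that follow, 5 regulators, 5 genes of fatty acid synthesis and 6 desaturases and elongases. All 31 passed the filter on low counts. They were chosen by name and function, not by their values.

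Cholesterol is built from acetyl-CoA through mevalonate, isoprenoid units, squalene and lanosterol, and fatty acids are built from the same acetyl-CoA through malonyl-CoA. SREBP transcription factors, encoded by Srebf1 and Srebf2, are held in the endoplasmic reticulum with Scap and Insig proteins and are released to the nucleus when sterols are low. The SREBP-2 protein acts mainly on sterol genes and SREBP-1c mainly on fatty acid genes. Brown and white fat express the fatty acid branch at high levels, and brown fat lies close to the thyroid in mice.

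RNA was sequenced from whole flash-frozen mouse thyroid in 3 genotype groups of 3 libraries: Smarcb1 KO, Arid2 KO and Wildtype. Smarcb1 and Arid2 encode subunits of the SWI/SNF chromatin remodelling complexes, Smarcb1 as a core subunit and Arid2 as a subunit of the PBAF form. The labels give no strain, age, deletion driver or batch, and it is not stated that replicate libraries are from different animals; p-values therefore reflect only the spread between these libraries, which may be technical. Replicate numbers follow the order of deposition and pair no samples. Smarcb1 itself stood at 53.5 ± 5.98 CPM in Smarcb1-labelled libraries and 69.0 ± 2.93 CPM in wild type (mean ± SD, n = 3 each; log2 fold change -0.36, SE 0.11, adjusted p = 0.0651), and Arid2 at 77.4 ± 17.3 CPM in Arid2-labelled libraries and 70.5 ± 3.86 CPM in wild type (0.13, SE 0.16, adjusted p = 0.745). CPM are counts scaled to library size. Neither targeted gene passed the test, so the knockout groups are called Smarcb1-labelled and Arid2-labelled.

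Total counts ran from 33666251 to 89553766 per library, with the Arid2-labelled libraries deepest. Tg, the thyroglobulin gene that defines thyrocytes, ran from 225709 to 321261 CPM over the 9 libraries. Among 7 thyrocyte markers, Foxe1, a thyroid transcription factor, was lower in Smarcb1-labelled libraries than in wild type (log2 fold change -2.19, adjusted p = 0.00102). Libraries also differed in markers of other cells. The summed level of 10 adipocyte markers (Adipoq, Plin1, Cidec, Lep, Cfd, Fabp4, Lipe, Ucp1, Cidea and Elovl3) ran from 673 to 1330 CPM in the Smarcb1-labelled libraries, from 1505 to 2737 CPM in the Arid2-labelled and from 727 to 3363 CPM in wild type, with wild-type replicate 3 highest. Summed parathyroid markers ran from 12125 to 21864 CPM in the Smarcb1-labelled libraries, from 40.1 to 3107 CPM in the Arid2-labelled and from 41.0 to 9204 CPM in wild type. Pth, the parathyroid hormone gene, was below 1 CPM in Arid2-labelled replicate 3 and wild-type replicate 3. The lymphocyte recombinase gene Rag1 was at 52.6 CPM in Smarcb1-labelled replicate 2 and 502 CPM in Arid2-labelled replicate 1, and at 0.145 CPM or less elsewhere. The red cell genes Hba-a1 (-4.01, adjusted p = 0.0179) and Hbb-b1 (-2.51, adjusted p = 0.0315) were lower in Smarcb1-labelled libraries than in wild type. The endothelial gene Emcn was higher than in wild type in Smarcb1-labelled (0.58, adjusted p = 0.0266) and in Arid2-labelled libraries (0.83, adjusted p = 0.0269). Summed skeletal muscle markers ran from 16.8 to 1634 CPM over the 9 libraries. In whole tissue, fewer cells of a type and less RNA per cell cannot be told apart.

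Levels per kilobase of the longest coding transcript were highest for some genes of the fatty acid branch, but the branches overlapped. Scd1, the stearoyl-CoA desaturase that makes monounsaturated fatty acids, was highest at 846 CPM per kilobase as a mean of the 9 libraries, followed by Fasn, the fatty acid synthase, at 119.5, Scd2, a second desaturase, at 91.8 and Acly, which supplies cytosolic acetyl-CoA from citrate, at 85.2. Srebf1 was the highest of the regulators at 37.6 CPM per kilobase, against 11.4 for Srebf2. In the sterol branch Ebp, a sterol isomerase, was highest at 19.3 and Pmvk, phosphomevalonate kinase, led the mevalonate steps at 14.3 CPM per kilobase. Idi1, which isomerises the isoprenoid unit, was lowest at 0.71. In the fatty acid branch Elovl5 (34.0) and Elovl6 (28.8) lay above Ebp. Acaca (18.2), Fads1 (18.1), Acss2 (15.6), Acacb (11.5) and Fads2 (8.65) lay below it. Levels of neighbours in this order overlap between libraries for many pairs, and the order is given as a description.

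**Figure D1:**
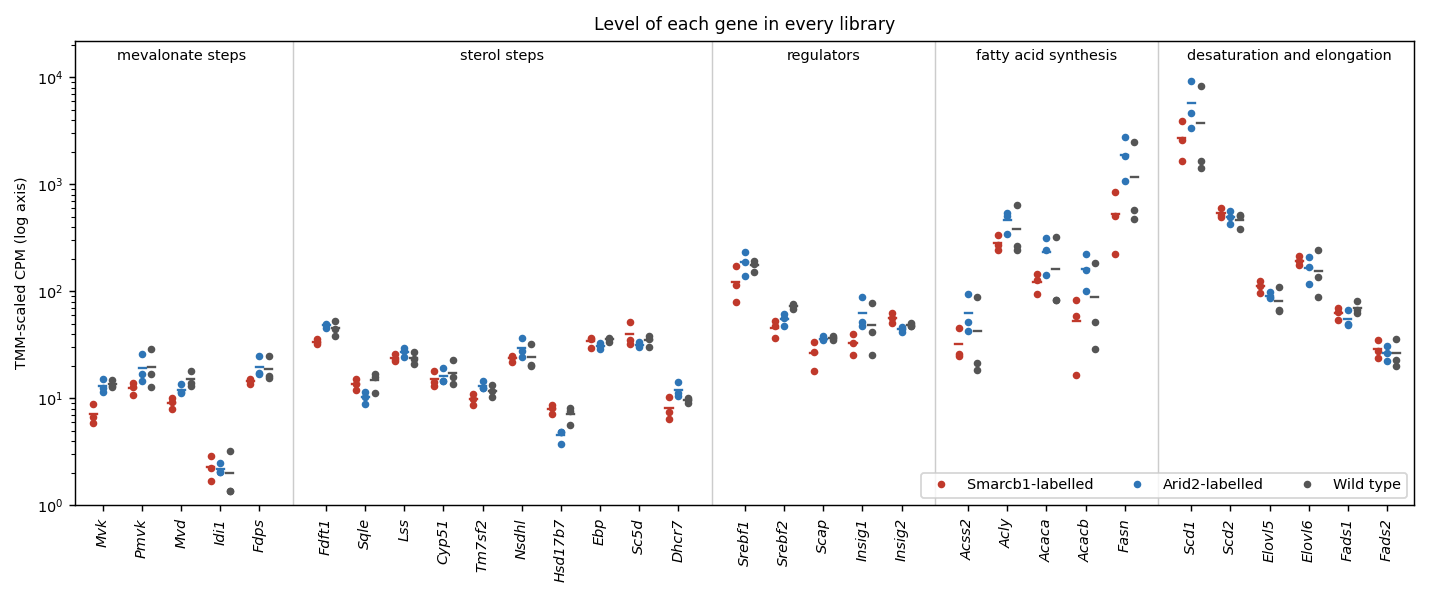
TMM-scaled CPM (log axis) of the 31 genes, grouped by role, with 1 point per library and a bar at each group's mean (n = 3): Smarcb1-labelled left, Arid2-labelled centre, wild type right. Fasn, Acacb, Acaca, Acss2 and Scd1 spread widely in wild type, with 1 wild-type library far above the others, while most sterol genes spread little. Acaca and Acss2 spread less in the Smarcb1-labelled group.

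Set against wild type, Smarcb1-labelled thyroid had 3 of the 31 genes fall and 0 rise: Mvk, Mvd and Srebf2. Their mean levels were lower by 0.93, 0.72 and 0.67 on the log2 scale. That is 9.68% of the genes called lower, where 5.74% of all 17079 genes tested were called lower, 2.15% higher and 7.9% in either direction (edgeR, adjusted p under 0.05). Before adjustment, 6 of the 31 had p under 0.05, where 4850 of the 17079 genes tested did. The 31 had a median log2 fold change of -0.26, against 0.05 over all genes tested.

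Among the mevalonate steps, 2 of 5 fell. Mvk, mevalonate kinase, measured 5.90, 8.85 and 6.66 CPM in replicates 1, 2 and 3 of the Smarcb1-labelled group, against 13.2, 14.8 and 12.8 CPM in wild type. All 3 Smarcb1-labelled libraries were below all 3 wild-type libraries (log2 fold change -0.93, SE 0.19, adjusted p = 0.0218). Mvd, the decarboxylase that makes isopentenyl diphosphate, stood at 8.04, 10.1 and 9.28 CPM in Smarcb1-labelled libraries, against 13.0, 13.9 and 18.2 CPM in wild type. Here too the groups did not overlap (-0.72, SE 0.18, adjusted p = 0.0415). Pmvk, the kinase between them, stood at 10.8, 14.0 and 12.8 CPM in Smarcb1-labelled libraries, against 12.8, 16.8 and 28.8 CPM in wild type, where replicate 3 was high and the groups overlapped (-0.63, SE 0.31, adjusted p = 0.213). Fdps, farnesyl diphosphate synthase, and Idi1 had log2 fold changes of -0.38 (adjusted p = 0.275) and 0.20 (adjusted p = 0.758).

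None of the 10 sterol-step genes passed by edgeR, 1 had p under 0.05 before adjustment, and DESeq2 called 1, Fdft1. Fdft1, squalene synthase, which commits isoprenoids to sterols, stood at 33.8, 32.0 and 35.6 CPM in Smarcb1-labelled libraries, against 44.5, 38.6 and 53.0 CPM in wild type. The groups did not overlap, and the edgeR test was just missed (-0.42, SE 0.12, adjusted p = 0.0651). The annotated exons of Fdft1 share 774 bases with those of Ctsb, the cathepsin B gene on the other strand, and no source used here says whether counting used strand, so the Fdft1 count is uncertain. Exons of Cyp51, Lss, Scap, Srebf1 and Acss2 also overlap a gene on the other strand, and Scd1 and Scd2 are close paralogs between which reads could be split. Exons of Idi1 and Elovl6 overlap opposite-strand genes that the count table does not name. On the same strand, exons of Tm7sf2 share 532 bases with Vps51 and those of Fdps share 1124 with Gm43738. Neither Vps51 nor Gm43738 is named in the count table, so the Tm7sf2 and Fdps counts are uncertain too. The other 9 sterol-step genes had log2 fold changes between -0.26 for Tm7sf2, a sterol reductase, and 0.19 for Sc5d, a sterol desaturase. Lss, lanosterol synthase, stood at 23.9 ± 1.72 CPM in Smarcb1-labelled libraries and 23.7 ± 3.04 CPM in wild type (SD, n = 3 each).

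Of the 5 regulators, Srebf2 fell. It stood at 36.8, 53.1 and 47.1 CPM in Smarcb1-labelled libraries, against 68.4, 76.3 and 72.9 CPM in wild type, with no overlap (log2 fold change -0.67, SE 0.15, adjusted p = 0.0306). Scap, the escort protein of both SREBPs, stood at 18.1, 33.8 and 27.1 CPM in Smarcb1-labelled libraries, against 38.1, 36.6 and 34.8 CPM in wild type. It was lower in 3 of 3 libraries, least in replicate 2, and did not pass (-0.47, SE 0.19, adjusted p = 0.147). Srebf1, with 79.1, 174 and 114 CPM in Smarcb1-labelled libraries, against 181, 192 and 152 CPM in wild type, overlapped (-0.52, SE 0.28, adjusted p = 0.250). The retention factor Insig2 was the only one of the 31 genes with every Smarcb1-labelled library above wild type, at 63.5, 50.5 and 56.7 CPM in Smarcb1-labelled libraries, against 48.0, 47.3 and 50.3 CPM in wild type (0.23, SE 0.10, adjusted p = 0.185).

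Over the 31 genes, 6 had every Smarcb1-labelled library below every wild-type library (Mvk, Mvd, Fdps, Fdft1, Srebf2 and Scap), or 19.4%, where 16.7% of all genes tested did; 1 was above without overlap, or 3.23%, where 17.1% did. The lower share is close to that of all genes. The 3 calls were lost in several fits that left out 1 library. None of Mvk, Mvd and Srebf2 passed without Smarcb1-labelled replicate 1 or 3, or without any 1 of the 3 wild-type libraries. The number of the 31 called was then 0, 0, 0, 0 and 1 (Elovl5, higher, without wild-type replicate 3). Shares of all genes called in these fits are not given here. A change in these 3 genes therefore cannot be told apart from fewer calls over all genes. Pth, Gcm2 and Casr were each higher in all 3 Smarcb1-labelled libraries than in every wild-type library, while Chga overlapped. With the level of Pth, Gcm2 and Casr as a covariate none of the 31 passed (edgeR, adjusted p = 0.111 for Mvk, 0.216 for Mvd and 0.136 for Srebf2). Log2 fold changes of the 5 mevalonate genes then ran from -0.87 to 0.68 (median -0.06), against -0.93 to 0.20 (median -0.63) without the covariate. Those of the 5 regulators ran from -0.65 to 0.28 (median -0.45), against -0.67 to 0.23 (median -0.52). The part of these markers in the result was not tested further. Without Smarcb1-labelled replicate 2, which had Rag1 at 52.6 CPM, the 3 passed together with Scap.

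The upstream sequences of the 3 genes that fell are shown because these genes moved in the same direction and sterol genes are known to share SREBP, NF-Y and Sp1 sites near their starts. The sequences are the 250 bases before the annotated start in RefSeq GRCm38.p6, 5′ to 3′ on the gene's strand; the submitters' processing notes name mm9, so this is another build than theirs. Capitals mark the letters CCAAT (the core of NF-Y sites), GGGCGG (a GC box), CACGTG (an E-box) and the sterol-element letters TCACNCCAC or TCACCCCA, each searched on both strands, so that ATTGG is CCAAT read from the other strand and CCGCCC is a GC box.
Mvk, chr5:114444019-114444268, plus strand: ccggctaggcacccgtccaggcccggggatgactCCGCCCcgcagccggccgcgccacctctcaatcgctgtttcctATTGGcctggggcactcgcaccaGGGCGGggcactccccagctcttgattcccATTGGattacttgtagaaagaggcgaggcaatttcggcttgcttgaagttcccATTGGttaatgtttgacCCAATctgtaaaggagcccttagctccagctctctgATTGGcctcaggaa
Mvd, chr8:122443423-122443672, minus strand: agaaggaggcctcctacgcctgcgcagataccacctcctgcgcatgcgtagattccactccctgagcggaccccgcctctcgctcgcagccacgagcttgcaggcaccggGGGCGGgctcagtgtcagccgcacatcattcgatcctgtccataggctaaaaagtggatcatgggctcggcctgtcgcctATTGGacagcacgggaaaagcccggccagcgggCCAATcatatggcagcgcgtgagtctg
Srebf2, chr15:82147019-82147268, plus strand: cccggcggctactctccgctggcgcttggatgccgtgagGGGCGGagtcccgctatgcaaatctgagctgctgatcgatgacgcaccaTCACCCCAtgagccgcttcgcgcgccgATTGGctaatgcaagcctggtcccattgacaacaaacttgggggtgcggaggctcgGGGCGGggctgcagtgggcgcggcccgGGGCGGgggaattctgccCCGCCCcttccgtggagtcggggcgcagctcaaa
The Mvk window holds 5 CCAAT and 2 GC boxes, the Mvd window 2 CCAAT and 1 GC box, and the Srebf2 window 1 CCAAT, 4 GC boxes and 1 TCACCCCA that begins 162 bases before the start.

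RefSeq windows were matched by symbol for 26 of the 32 genes, Hmgcs1 included. CCAAT was found upstream of 21 of the 26 (80.8%), against 37.5% of 27025 genes with a window and 39.6% of the 11183 of those tested here. GGGCGG was found for 20 of 26 (76.9%), against 35.4% of all and 60.2% of the tested genes, and CACGTG for 6 (23.1%), against 6.86% and 9.45%. TCACNCCAC occurred once, upstream of Hmgcs1, or 3.8%, against 1.22% of all genes, and TCACCCCA upstream of Hmgcs1 and Srebf2, or 7.7%, against 1.54% (this shorter form was added after the sequences were seen). Genes with several annotated starts were counted once if any window held the letters. A match of letters is not a binding site.

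Transcript GC content moved with this comparison. Mvk, Mvd and Srebf2 have 59.6%, 59.3% and 57.9% GC in the longest coding transcript, all in the class of 55% or more, where the median log2 fold change of all 4020 genes tested was -0.39 and 18.7% were called lower. In the class under 45% GC the median of all genes was 0.32 and 0.347% were called lower. The 9 genes described here in the top class (Mvk, Pmvk, Mvd, Tm7sf2, Srebf1, Srebf2, Scap, Acacb and Fasn) had a median of -0.67, and the 5 under 45% (Idi1, Hsd17b7, Sc5d, Elovl5 and Elovl6) a median of 0.20. After a GC trend was fitted and removed per library, the log2 fold changes were -0.42 for Mvk (adjusted p = 0.125), -0.22 for Mvd (0.535) and -0.30 for Srebf2 (0.165), and 0 of the 31 passed.

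**Figure D2:**
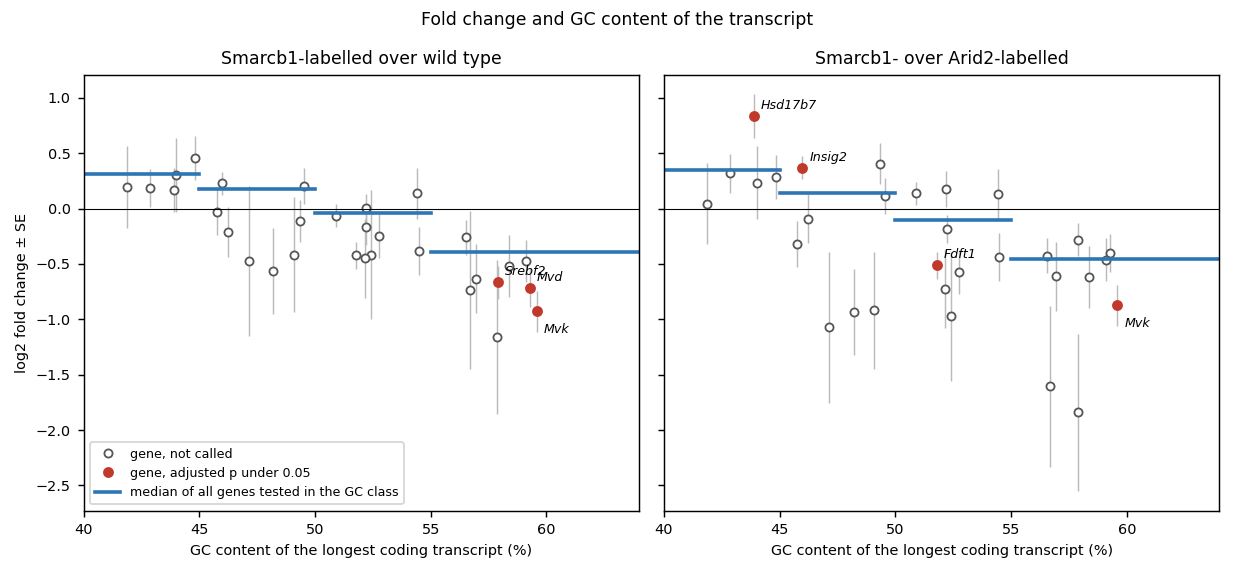
Log2 fold change (± SE) of the 31 genes against the GC content of the longest coding transcript, for Smarcb1-labelled over wild type (left) and over Arid2-labelled (right). Blue bars are the medians of all genes tested in 4 GC classes (the outer bars stand for under 45% and for 55% or more); the called genes are named, and Mvk, Mvd and Srebf2 lie at the GC-rich end, where the median of all genes is also below 0.

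The fatty acid branch had 0 calls among its 11 genes in this comparison by edgeR and by DESeq2, with 1 (Elovl5) at p under 0.05 before adjustment. All 5 genes of fatty acid synthesis had negative fold changes, with a median of -0.45 on the log2 scale. Fasn stood at 221, 853 and 511 CPM in Smarcb1-labelled libraries, against 573, 476 and 2502 CPM in wild type. Wild-type replicate 3 was several times any of the other 5 and the groups overlapped (log2 fold change -1.16, SE 0.70, adjusted p = 0.297). Scd1 stood at 1663, 3932 and 2591 CPM in Smarcb1-labelled libraries, against 1666, 1433 and 8261 CPM in wild type, again with replicate 3 highest (-0.47, SE 0.68, adjusted p = 0.677). Elovl5, an elongase of polyunsaturated fatty acids, stood at 113, 124 and 96.5 CPM in Smarcb1-labelled libraries, against 66.8, 66.1 and 110 CPM in wild type (0.46, SE 0.20, adjusted p = 0.170). Without wild-type replicate 3 the median of the 5 synthesis genes was 0.39, with all 5 positive and none called. With all libraries kept it was 0.40 with the adipocyte covariate (4 of 5 positive) and 0.79 with the parathyroid covariate (5 of 5 positive). Without the libraries with Rag1 above 10 CPM it was -0.78, with 5 of 5 negative. The sign of this group thus changed with the libraries and covariates used. All 10 adipocyte markers had negative fold changes in the same comparison, none of them called. Their part in the result was not tested beyond the covariate fit.

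Arid2-labelled thyroid gave no such calls against wild type: 0 of the 31 genes passed by edgeR, where 0.234% of all genes tested were called higher and 0.322% lower. Before adjustment 3 had p under 0.05 (Hsd17b7, Sqle and Srebf2), where 2541 of the 17079 genes tested did. DESeq2 called 1, Hsd17b7. The 31 had a median log2 fold change of 0.09, against 0.02 over all genes tested.

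Hsd17b7, which reduces a keto group during removal of methyl groups from the sterol ring, stood at 4.86, 4.88 and 3.76 CPM in Arid2-labelled libraries, against 5.67, 7.57 and 8.22 CPM in wild type. Each Arid2-labelled library was below wild type (log2 fold change -0.67, SE 0.20, adjusted p = 0.164). Sqle, squalene epoxidase, an oxygen-requiring and rate-limiting sterol step, stood at 11.5, 8.86 and 10.4 CPM in Arid2-labelled libraries, against 11.3, 17.0 and 15.8 CPM in wild type (-0.52, SE 0.19, adjusted p = 0.245). Wild-type replicate 1 lay within the Arid2-labelled range. Srebf2 stood at 61.8, 47.9 and 56.5 CPM in Arid2-labelled libraries, against 68.4, 76.3 and 72.9 CPM in wild type, without overlap (-0.39, SE 0.15, adjusted p = 0.267).

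Ebp stood at 29.3, 32.7 and 31.0 CPM in Arid2-labelled libraries, against 36.2, 33.9 and 36.7 CPM in wild type, a small difference without overlap (-0.20, SE 0.11, adjusted p = 0.413). Fads1, the delta-5 desaturase, stood at 49.7, 48.4 and 67.5 CPM in Arid2-labelled libraries, against 66.7, 80.7 and 63.2 CPM in wild type, with overlap (-0.35, SE 0.16, adjusted p = 0.359). For Mvd the values were 11.1, 11.4 and 13.7 CPM in Arid2-labelled libraries, against 13.0, 13.9 and 18.2 CPM in wild type (-0.31, SE 0.17, adjusted p = 0.440). Mvk, which fell in the Smarcb1-labelled libraries, stood at 11.5, 12.6 and 15.1 CPM in Arid2-labelled libraries, against 13.2, 14.8 and 12.8 CPM in wild type (-0.05, SE 0.18, adjusted p = 0.918). Over the 31 genes, 4 were lower without overlap (Hsd17b7, Ebp, Srebf2 and Insig2), or 12.9%, where 12.6% of all genes tested were, and 1 was higher (Dhcr7, the last reductase of cholesterol synthesis), or 3.23%, where 12.9% were.

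Fold changes of the 5 fatty acid synthesis genes were all positive here, with a median of 0.56 on the log2 scale and large errors. Fasn stood at 1082, 1838 and 2756 CPM in Arid2-labelled libraries, against 573, 476 and 2502 CPM in wild type (log2 fold change 0.68, SE 0.69, adjusted p = 0.700). Scd1 stood at 3343, 4679 and 9209 CPM in Arid2-labelled libraries, against 1666, 1433 and 8261 CPM in wild type (0.60, SE 0.68, adjusted p = 0.732). In both genes the 3 Arid2-labelled libraries lay above wild-type replicates 1 and 2, and replicate 3 of either group was that group's highest. Without wild-type replicate 3 the log2 fold changes were 1.85 for Fasn (adjusted p = 0.205), 1.89 for Scd1 (0.155) and 1.49 for Acaca (0.103), and none passed. Of the 10 adipocyte markers 8 had positive fold changes, none called, and their part in these values was not tested beyond the covariate fit given below.

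**Figure D3:**
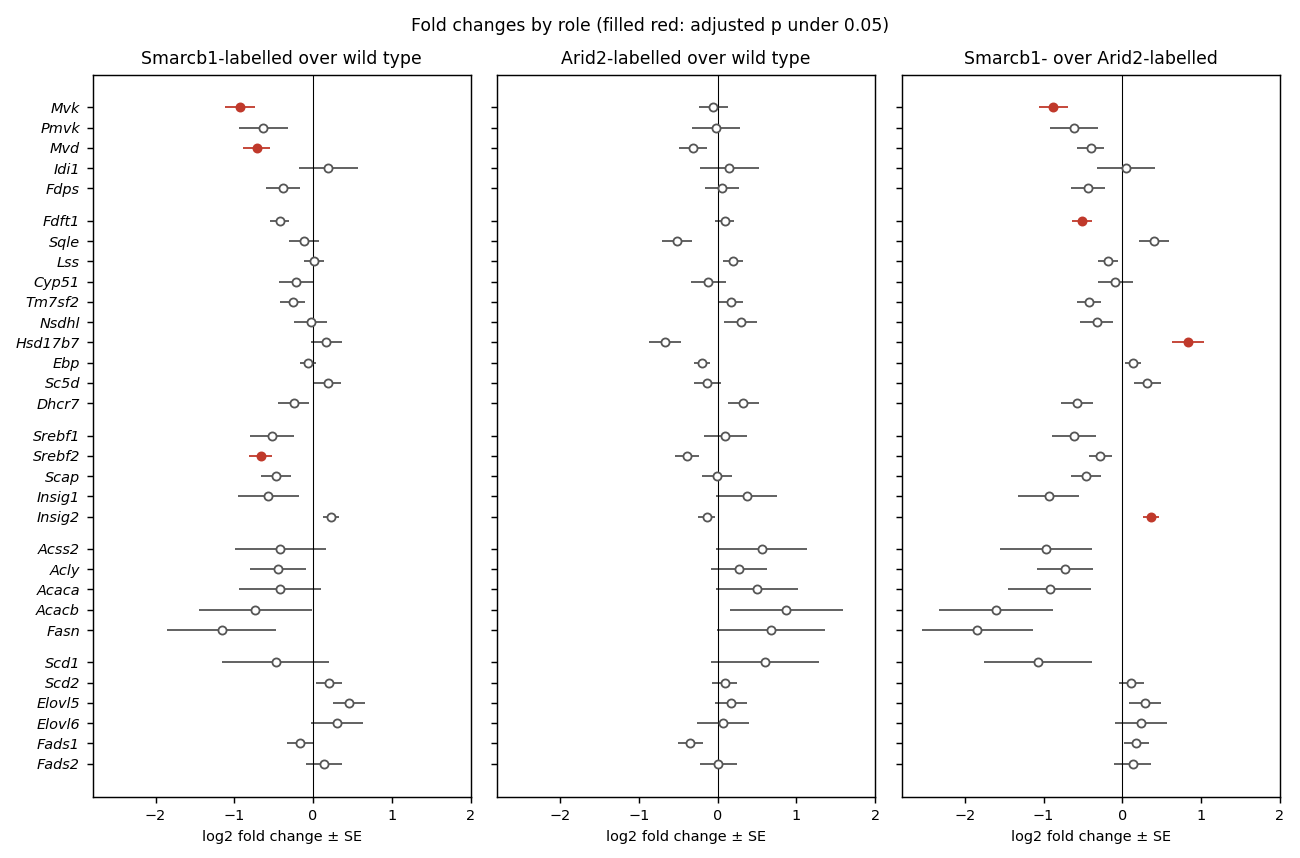
Log2 fold change (± SE) of each of the 31 genes in the 3 comparisons, ordered by role from the mevalonate steps at the top to the desaturases and elongases at the bottom; filled red points passed an adjusted p under 0.05. Mvk, Mvd and Srebf2 passed against wild type in the Smarcb1-labelled libraries, none passed in the Arid2-labelled, and the fatty acid synthesis genes carry the longest error bars.

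The direct comparison of Smarcb1-labelled with Arid2-labelled thyroid tests whether the groups differ from each other. Here 4 of the 31 genes passed, Hsd17b7 and Insig2 higher and Mvk and Fdft1 lower. Each direction is 6.45% of the 31, where 6.95% of all genes tested were called higher, 9.32% lower and 16.3% in either direction, so the shares are near or below those of all genes. The 31 had a median log2 fold change of -0.40, against 0.003 over all genes tested. This comparison shares its libraries with both others.

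Mvk stood at 5.90, 8.85 and 6.66 CPM in Smarcb1-labelled libraries, against 11.5, 12.6 and 15.1 CPM in Arid2-labelled libraries (log2 fold change -0.87, SE 0.19, adjusted p = 0.0192). Fdft1 stood at 33.8, 32.0 and 35.6 CPM in Smarcb1-labelled libraries, against 45.8, 48.6 and 50.1 CPM in Arid2-labelled libraries (-0.51, SE 0.12, adjusted p = 0.0277), with the uncertainty from Ctsb given above. Hsd17b7 stood at 8.70, 8.19 and 7.17 CPM in Smarcb1-labelled libraries, against 4.86, 4.88 and 3.76 CPM in Arid2-labelled libraries (0.83, SE 0.20, adjusted p = 0.0275). None of these groups overlapped.

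Insig2 stood at 63.5, 50.5 and 56.7 CPM in Smarcb1-labelled libraries, against 44.7, 46.1 and 41.3 CPM in Arid2-labelled libraries, a smaller difference (0.37, SE 0.10, adjusted p = 0.0438). Dhcr7 stood at 6.49, 10.2 and 7.52 CPM in Smarcb1-labelled libraries, against 14.3, 11.3 and 10.6 CPM in Arid2-labelled libraries (-0.57, SE 0.20, adjusted p = 0.0753). The sterol reductase gene Tm7sf2 stood at 8.62, 11.1 and 9.80 CPM in Smarcb1-labelled libraries, against 12.6, 12.6 and 14.4 CPM in Arid2-labelled libraries (-0.42, SE 0.15, adjusted p = 0.0864). Dhcr7 and Tm7sf2 were lower without overlap but did not pass.

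Of the 31 genes, 12 were lower without overlap in this comparison, or 38.7%, where 20.5% of all genes tested were, and 3 were higher (Sqle, Hsd17b7 and Insig2), or 9.68%, where 18.3% were. The lower ones comprise 4 of 5 mevalonate genes, 3 of 10 sterol-step genes, 2 of 5 regulators and 3 of 5 fatty acid synthesis genes. Of the 10 adipocyte markers, 7 were lower without overlap as well, and none was called. Fasn stood at 529 ± 316 CPM in Smarcb1-labelled libraries and 1892 ± 838 CPM in Arid2-labelled libraries (SD, n = 3 each; log2 fold change -1.84, SE 0.71, adjusted p = 0.0995). Wild-type replicate 3 is in neither group and enters through the shared spread, the scaling and the filter. Without wild-type replicate 3 Fasn (-1.84, adjusted p = 0.0478) and Acly (-0.73, adjusted p = 0.0470) passed. Without Smarcb1-labelled replicate 1 or 3, or Arid2-labelled replicate 2 or 3, 0 of the 31 passed, and without Smarcb1-labelled replicate 2, 7 did. The shares of all genes called in these fits are not given here, so the counts are not set against all genes. Hsd17b7 has 43.9% GC and Insig2 46.0%, in classes whose median over all genes was above 0, and with the GC trend removed 0 of the 31 passed.

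Within groups, Acacb, Fasn, Scd1, Acss2 and Acaca varied most, followed by Insig1 (SD 0.57 on the log2 scale) and Acly (0.51). The median within-group SD on the log2 scale was 0.84 over the 5 synthesis genes, 0.30 over the 6 desaturation and elongation genes (0.98 for Scd1), 0.29 over the mevalonate genes, 0.27 over the regulators, 0.23 over the sterol-step genes and 0.24 over all genes tested; it was 0.88 over the adipocyte markers. In wild type the highest library exceeded the lowest 6.28-fold for Acacb, the acetyl-CoA carboxylase that controls fatty acid oxidation, 5.76-fold for Scd1, 5.26-fold for Fasn, 4.77-fold for Acss2, which activates acetate, 3.94-fold for Acaca, the carboxylase of fatty acid synthesis, and 2.63-fold for Acly. Insig1 varied 3.03-fold and Elovl6 2.73-fold there, while Scd2 and Insig2 varied only 1.35-fold and 1.06-fold. Wild-type replicate 3 was the highest of its group for all 5 synthesis genes, 9 of 10 sterol-step genes, 4 of 5 mevalonate genes, 3 of 6 desaturation and elongation genes, 2 of 5 regulators and 9 of 10 adipocyte markers, and for 36.8% of all genes tested.

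Some adipocyte markers moved with these genes from library to library, but not all shared their order. In the Smarcb1-labelled group Adipoq, Cidec, Cfd, Fabp4 and Elovl3 were highest in replicate 3. Acss2, Acly, Acaca, Acacb, Fasn and Scd1 were highest there in replicate 2, as were Plin1, Lep, Lipe, Ucp1 and Cidea. Ucp1, the uncoupling protein of brown fat, stood at 27.4, 149 and 125 CPM in Smarcb1-labelled libraries, at 222, 299 and 494 CPM in Arid2-labelled libraries and at 77.4, 85.4 and 691 CPM in wild type. Acacb stood at 16.5, 83.2 and 59.1 CPM in Smarcb1-labelled libraries, at 101, 159 and 223 CPM in Arid2-labelled libraries and at 51.4, 29.2 and 184 CPM in wild type. The lowest Smarcb1-labelled, the highest Arid2-labelled and the highest wild-type library were the same for both genes. The order of the 3 libraries was that of Ucp1 in every group for Acss2, Acly, Acaca, Pmvk, Mvd and Tm7sf2. It was that of Plin1, a lipid droplet protein of fat cells, for Acacb, Fasn, Scd1 and Nsdhl. Of all genes tested, 1.45% and 1.79% had those orders. Of the 10 adipocyte markers, only 3 had the order of Ucp1 and 2 that of Plin1, each count including the marker itself.

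A fit with the mean log2 level of Adipoq, Plin1 and Cidec as a covariate gave the change per doubling of that level within groups. Acacb rose by 1.40 on the log2 scale per doubling (SE 0.21, adjusted p = 0.0400), the single call among the 31 genes, where 0.381% of the 17076 genes tested were called higher and 0.0176% lower. The slopes of Fasn (1.26, SE 0.23, adjusted p = 0.0716), Scd1 (1.23, SE 0.21, 0.0611) and Acaca (0.90, SE 0.18, 0.0915) did not pass. The median slope was 0.94 over the 5 synthesis genes, 0.32 over the mevalonate genes and 0.08 over the sterol-step genes. Slopes on the level of Pth, Gcm2 and Casr ran the other way, and 0 of the 31 passed, where 0.117% of genes were called higher and 0.00586% lower. Their median was -0.27 over the synthesis genes, and the smallest p-values were those of Scd1 (-0.33, SE 0.05, adjusted p = 0.105), Acss2 (-0.27, SE 0.05, 0.111), Nsdhl (-0.10, SE 0.02, 0.121) and Insig1 (-0.19, SE 0.04, 0.121). For Scd1 and Acss2 the unadjusted p was smaller than on the adipocyte level (0.000253 against 0.000343 for Scd1, and 0.00046 against 0.00342 for Acss2). For Acly the 2 values were close (0.00578 against 0.00624). The p was larger than on the adipocyte level for Acacb (0.00906 against 0.000128), Fasn (0.00404 against 0.000475) and Acaca (0.00102 against 0.000916). Whether these genes follow one marker level more than the other was not tested. With the adipocyte covariate, the median of the 5 synthesis genes was 0.40 for Smarcb1-labelled over wild type, 0.25 for Arid2-labelled over wild type and -0.04 for Smarcb1-labelled over Arid2-labelled. Fasn was the lowest of the 5 in both Smarcb1 comparisons, and its fold changes were -0.08 (SE 0.36) for Smarcb1-labelled over wild type, 0.27 (SE 0.36) for Arid2-labelled over wild type and -0.35 (SE 0.43) for Smarcb1-labelled over Arid2-labelled. The calls of Mvk, Mvd and Srebf2 against wild type were lost with this covariate, with values of -0.90, -0.56 and -0.64 (adjusted p = 0.0519, 0.0817 and 0.0690).

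**Figure D4:**
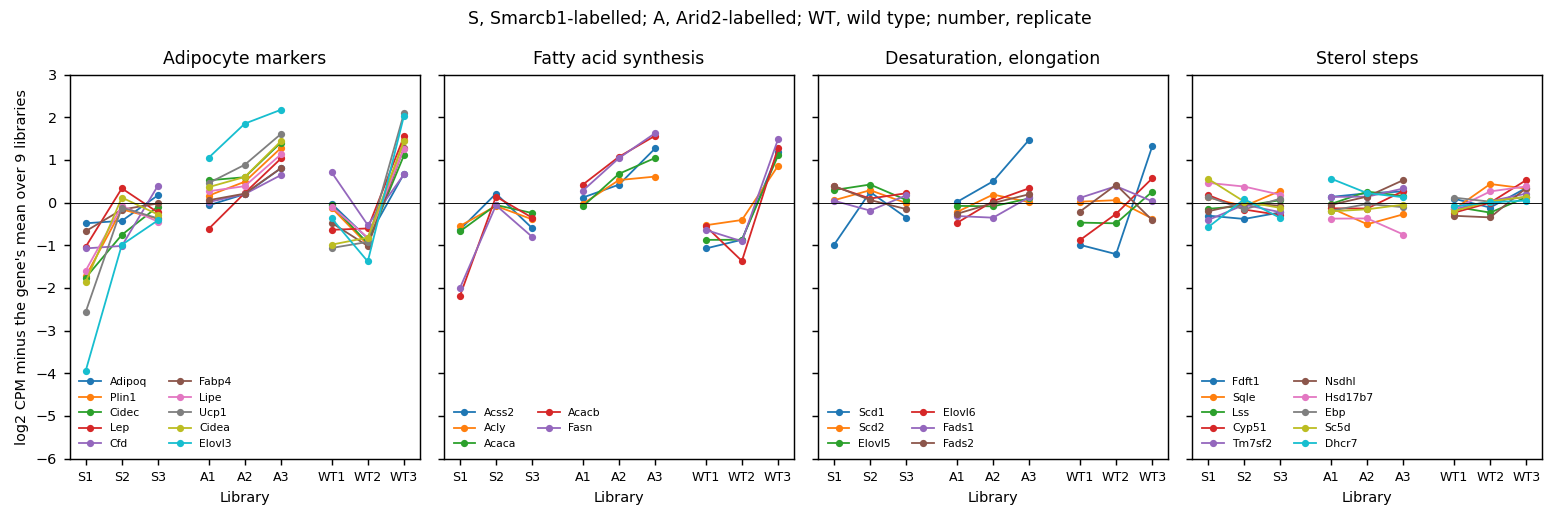
Log2 CPM of each gene minus its own mean over the 9 libraries, for the adipocyte markers and 3 groups of the genes described here, with 1 point per gene and library and lines joining the points of 1 gene within a group. Smarcb1-labelled replicate 1 is lowest for Ucp1, Plin1, Acacb and Fasn, and Arid2-labelled replicate 3 and wild-type replicate 3 are high for the adipocyte markers and the fatty acid synthesis genes, while the sterol-step genes spread less.

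Of 37 neighbouring genes of lipid metabolism outside the 31, 2 rose and 1 fell in Smarcb1-labelled over wild-type thyroid. In Arid2-labelled over wild type 0 passed, and DESeq2 called 2. There 6 had p under 0.05 before adjustment, where 2541 of all 17079 genes tested did. In Smarcb1-labelled over Arid2-labelled 5 were higher and 3 lower. Over wild type that is 5.41% higher and 2.7% lower in Smarcb1-labelled thyroid, where 2.15% and 5.74% of all genes tested were. Over Arid2-labelled it is 13.5% higher and 8.11% lower, where 6.95% and 9.32% of all genes tested were. Stard4, a sterol carrier protein, stood at 22.2, 18.3 and 23.2 CPM in Smarcb1-labelled libraries, at 9.65, 7.64 and 8.64 CPM in Arid2-labelled libraries and at 5.76, 8.40 and 11.1 CPM in wild type. Every Smarcb1-labelled library was above all the others (against wild type 1.33, SE 0.23, adjusted p = 0.0144; against Arid2-labelled 1.29, SE 0.23, adjusted p = 0.0119). Nr1h2, which encodes the sterol receptor LXR-beta, stood at 34.8, 50.1 and 39.4 CPM in Smarcb1-labelled libraries, at 77.5, 80.7 and 85.1 CPM in Arid2-labelled libraries and at 82.9, 87.2 and 75.6 CPM in wild type (against wild type -0.98, SE 0.14, adjusted p = 0.00658). Acsl4, an acyl-CoA synthetase that prefers arachidonate, stood at 107 ± 35.9 CPM in Smarcb1-labelled libraries and 36.0 ± 10.6 CPM in wild type (1.56, SE 0.32, adjusted p = 0.0229).

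Against Arid2-labelled thyroid, the cholesterol exporter gene Abca1 (0.65, SE 0.19), the acyl-CoA synthetase gene Acsl3 (0.78, SE 0.16) and Mbtps2, the site-2 protease that releases SREBPs (0.55, SE 0.15), were also higher in Smarcb1-labelled libraries. Nr1h3, which encodes LXR-alpha (-0.91, SE 0.20), and the lysosomal sterol carrier gene Npc2 (-0.67, SE 0.18) were lower, beside Nr1h2. With the GC trend removed Nr1h2 (-0.37), Stard4 (1.03) and Acsl4 (1.16) no longer passed against wild type (adjusted p = 0.0555, 0.0555 and 0.0600). With the adipocyte covariate Stard4, Nr1h2 and Acsl4 passed against wild type (adjusted p = 0.0288, 0.0193 and 0.0340). Without wild-type replicate 3 Acsl4 did not pass against wild type (1.45, adjusted p = 0.0796).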

How the data were processed

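The deposited file holds raw counts per gene symbol, whole numbers with no normalization, for 9 libraries. RNA was isolated with TRIzol and made into libraries with a TruSeq RNA kit, per the labels' protocols. STAR 2.4, HTSeq 0.6.1, DESeq2 and mm9 are listed, per the submitters' processing notes, without role or order; strand use is not given in the sources used here.

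Counts were tested with edgeR 4.0.16 in R 4.3.3 (quasi-likelihood F test, TMM scaling, filterByExpr, 3 group means, no covariate, 6 residual degrees of freedom), adjusted by Benjamini-Hochberg over 17079 genes and called at an adjusted p under 0.05. Standard errors were derived from each fold change and F value. CPM were computed here with TMM scaling. GC content and length come from the longest coding transcript in GENCODE M21 (GRCm38), matched for 97.2% of tested genes, and the GC trend is a spline with 5 degrees of freedom. No source used here names molecular identifiers, so reads may not be independent molecules.

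The genes, lists and tests were chosen with earlier results of these data known. Values in every library are given for called genes, the 6 smallest p-values per comparison and the highest member of each role. Some other genes, Acacb and Ucp1 among them, were named after their values were seen. The test was checked on simulated counts. Of 100 genes set to a 2-fold change it recovered 37 for Arid2-labelled over wild type. It recovered 38 for Smarcb1-labelled over wild type and 34 for Smarcb1-labelled over Arid2-labelled. A gene that did not pass may therefore still differ. False calls numbered 10, 7 and 4 in the same order of comparisons. The simulated counts held fewer changed genes than were called in either Smarcb1 comparison, so the recovery there may differ from these values. Alternatives were other scalings, filters, DESeq2 1.42.0, fits of 6 libraries, a threshold of 0.01, GC and tissue covariates, and omitted libraries.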

Additional observations from a re-analysis of the deposited data

Results flagged for a closer look

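Hsd17b7, Insig2 and Fdft1 had fold changes of opposite sign in the Smarcb1-labelled and the Arid2-labelled libraries relative to wild type, and the direct test between the groups passed for each. Hsd17b7 was 0.83 higher on the log2 scale in Smarcb1-labelled than in Arid2-labelled libraries (against wild type 0.17 in Smarcb1-labelled and -0.67 in Arid2-labelled libraries). Insig2 was 0.37 higher (against wild type 0.23 in Smarcb1-labelled and -0.14 in Arid2-labelled libraries). The difference for Fdft1 was -0.51 (against wild type -0.42 in Smarcb1-labelled and 0.09 in Arid2-labelled libraries). None of these 6 fold changes against wild type passed by edgeR, while DESeq2 called Fdft1 in Smarcb1-labelled and Hsd17b7 in Arid2-labelled libraries. With the GC trend removed, the signs against wild type were no longer opposite for any of the 3 genes: Hsd17b7 (-0.14) and Insig2 (-0.028) turned negative in Smarcb1-labelled libraries and Fdft1 (-0.013) in Arid2-labelled libraries. The direct differences were then 0.56 for Hsd17b7, 0.16 for Insig2 and -0.42 for Fdft1, and none passed (adjusted p = 0.110, 0.265 and 0.0964).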

How the results depend on the processing

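The number of the 31 genes called, 3 for Smarcb1-labelled over wild type, 0 for Arid2-labelled over wild type and 4 for Smarcb1-labelled over Arid2-labelled, changed by less than 1.5 times with DESeq2 size factors, upper-quartile scaling and other filters on low counts. For both Smarcb1 comparisons it was 0 with the GC trend removed, with the parathyroid covariate, with the adipocyte covariate, at an adjusted p under 0.01 and without the libraries with Pth under 1 CPM (an alternative chosen after seeing the data). Without the libraries with Rag1 above 10 CPM it was 5 over wild type and 7 over Arid2-labelled. Fitting only the 6 libraries compared gave 0 and 2 in these comparisons. DESeq2 called 7 for Smarcb1-labelled over Arid2-labelled, 4 for Smarcb1-labelled over wild type and 1 for Arid2-labelled over wild type. Leaving out 1 library at a time gave 0 to 4 for Smarcb1-labelled over wild type, 0 to 7 for Smarcb1-labelled over Arid2-labelled and 0 for Arid2-labelled over wild type. Shares of all genes called under these alternatives are not given here, so the counts are not set against all genes. Reversed signs, none of them called, were seen with the GC trend removed for Fdft1 in Arid2-labelled over wild type (-0.013), Hsd17b7 (-0.14) and Insig2 (-0.028) in Smarcb1-labelled over wild type, and Mvd (0.17) and Srebf2 (0.17) in Smarcb1-labelled over Arid2-labelled. In Arid2-labelled over wild type, leaving out 1 library at a time moved Fdft1 between -0.016 (without wild-type replicate 2) and 0.22 (without wild-type replicate 3). It moved Mvk between -0.18 (without Arid2-labelled replicate 3) and 0.030 (without Arid2-labelled replicate 1). The cause was not tested. No paired analysis was possible because the labels carry no replicate numbers shared between groups.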
